A study of Homo sapiens with 132 samples.

Results

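The death receptors and their ligands were followed through 10 genes, which were all of the genes named for this purpose and were picked by symbol out of the 65217 gene identifiers of every count file. The 5 receptors were FAS, TNFRSF10A and TNFRSF10B (the receptors TRAIL-R1 and TRAIL-R2), TNFRSF1A (the main TNF receptor) and TNFRSF21 (the receptor DR6). The 3 genes of the intracellular signalling complex were FADD, CASP8 and CFLAR, and the 2 ligands were TNFSF10 (TRAIL) and TNFSF15 (TL1A). The members were matched by symbol and not by a threshold on their values, although the list was drawn up with earlier results of these data known.

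Death receptors are members of the TNF receptor superfamily that carry a death domain on the inside of the plasma membrane. When a ligand such as FAS ligand or TRAIL clusters its receptor, the adaptor FADD binds the death domain and recruits the initiator protease caspase 8, whose activation starts apoptosis. The c-FLIP proteins encoded by CFLAR compete with caspase 8 for the same complex. In epithelial tumour cells the same receptors can also signal through NF-kappa B, and the growth factor receptors EGFR and HER2 act on a separate, survival-promoting pathway.

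The libraries came from 4 established cell lines grown from metastases of gastric carcinoma, namely MKN1, MKN7, NCI-N87 (N87 in the labels) and Hs746T. All 4 lines were left untreated or received trastuzumab (Tra, an antibody against HER2, 5 µg/ml), afatinib (Afa, an irreversible inhibitor of the EGFR and HER2 kinases, 0.5 µM) or both (Tra + Afa). MKN1 and Hs746T cells also received epidermal growth factor (EGF, 5 ng/ml), cetuximab (Cet, an antibody against EGFR, 1 µg/ml) or both (EGF + Cet). Each treatment was sampled after 4 h and 24 h with 3 replicates, which gave 44 conditions and 132 libraries. The study introduced MKN1 as a cetuximab responder, NCI-N87 as a trastuzumab responder, and MKN1, MKN7 and NCI-N87 as afatinib responders, with Hs746T as the line that responds to neither cetuximab nor afatinib. The untreated cells did not receive the solvent of afatinib, so that in these libraries the effects of afatinib and of its solvent cannot be told apart. Outside these libraries, the study included the solvent DMSO as a control when it checked selected genes by qPCR. It also cited earlier western blots in which DMSO had minor effects compared to afatinib. Each line is 1 culture model of 1 tumour, and a difference between lines cannot be told apart from other differences between these tumours.

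The libraries held 25832557 to 69434151 counts (median 50725775), and a count of 0 would have allowed up to 3 counts, or 0.0432 to 0.116 CPM (counts scaled to a common library size), for counting error only. No library had a count of 0 for any of the 10 genes, and all 10 passed the filter on low counts in every line. Levels are given as CPM scaled over all libraries. A gene was called changed where the adjusted p was below 0.05, and regulated where in addition the log2FC was above 1 or below -1. The p-values cover the spread between the 3 replicates of each condition. Of the 5 epithelial markers, CDH1 (E-cadherin) had a median of 253 CPM in untreated MKN7 and 265 CPM in untreated NCI-N87 cells but 2.18 CPM in MKN1 and 0.778 CPM in Hs746T cells, and EPCAM was likewise lower in MKN1 and Hs746T cells. The keratins KRT8, KRT18 and KRT19 were high in MKN1 cells (11400, 3100 and 4060 CPM), above MKN7 cells (3360, 963 and 1150 CPM), and lowest in Hs746T cells (340, 149 and 26.7 CPM). The mesenchymal marker VIM was at 1490 CPM in Hs746T and 410 CPM in MKN1 cells, and the fibroblast marker COL1A1 at 534 CPM in Hs746T cells. Over all libraries, treated or not, the immune markers PTPRC and CD3E reached at most 0.664 and 0.104 CPM in any line. The third immune marker, CD14, had a median of 4.31 CPM in MKN1 cells and reached at most 1.25 CPM in the other lines. Of the endothelial markers, CDH5 reached at most 0.793 CPM in any line. PECAM1 had a median of 155 CPM in Hs746T and 9.82 CPM in MKN1 cells, and reached at most 1.97 CPM in MKN7 and 0.767 CPM in NCI-N87 cells. Every library pools the RNA of a culture, so that a change in each cell and a change in the share of cells cannot be told apart.

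Because the ligands showed the widest spread of all 10 genes, the 250 bases before their RefSeq start sites (GRCh38.p14) are shown, 5' to 3' in the direction of transcription. Capitals in the TNFSF10 stretch, at chr3:172523431-172523680 on the minus strand, mark a match to the interferon-stimulated response element (a pair of GAAA boxes 2 bases apart, read here as the reverse complement) and a TATAAA box. Capitals in the TNFSF15 stretch, at chr9:114792531-114792780 on the minus strand, mark a match to the AP-1 letters TGANTCA.
TNFSF10: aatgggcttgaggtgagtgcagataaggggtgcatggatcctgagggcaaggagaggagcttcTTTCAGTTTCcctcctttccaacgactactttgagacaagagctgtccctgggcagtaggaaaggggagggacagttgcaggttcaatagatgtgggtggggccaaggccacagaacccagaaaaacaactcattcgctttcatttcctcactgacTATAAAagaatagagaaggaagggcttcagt
TNFSF15: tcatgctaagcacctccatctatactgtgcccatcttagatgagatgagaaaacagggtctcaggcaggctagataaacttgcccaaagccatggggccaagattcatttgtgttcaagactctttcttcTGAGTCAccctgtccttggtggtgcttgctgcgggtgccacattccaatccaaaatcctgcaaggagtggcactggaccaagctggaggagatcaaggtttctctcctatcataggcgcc
The interferon element of TNFSF10 lay 187 to 178 bases before the start and the TATAAA box 31 to 26 bases before it. The AP-1 letters of TNFSF15 lay 120 to 114 bases before the start. Both RefSeq starts lie inside the gene as GENCODE annotates it, but not alike. A gene on the minus strand begins at its higher coordinate, which is 172523507 for TNFSF10 and 114806126 for TNFSF15. The TNFSF10 window spans that position. The TNFSF15 window lies wholly inside the annotated gene, so its stretch precedes an internal start and not the annotated beginning. Searched on both strands, 35114 such windows of all genes held the interferon element in 3.02%, TATAAA in 10.7%, TGANTCA in 6.57% and the forkhead letters TGTTTAC in 2.98% of cases. The forkhead letters were in neither ligand's window. These matches describe the letters only. Of the 10 genes, 8 had a window in the table of promoters. The AP-1 letters were not particular to TNFSF15, since 1 window each of FAS, CFLAR and CASP8 also held them. Another CASP8 window held TATAAA. FAS, CFLAR and CASP8 had 3, 4 and 3 windows, and each ligand had 1.

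In untreated cells the 4 lines differed most in TNFRSF21, FAS, FADD and the 2 ligands. TNFRSF21 had a median of 689 CPM in MKN1 and 670 CPM in MKN7 cells against 99.5 CPM in NCI-N87 and 91.6 CPM in Hs746T cells (6 libraries per line, 4 h and 24 h together). The first pair did not differ (log2FC 0.00 ± 0.08, SE, adjusted p = 0.986) and neither did the second (0.15 ± 0.08, adjusted p = 0.0826), while every comparison across the pairs gave a log2FC of 2.76 to 2.92 and passed the test. FAS was lowest in MKN7 cells, where the 6 libraries lay between 2.55 and 3.84 CPM, and highest in Hs746T cells (35.1 to 42.1 CPM). MKN1 (14 to 18 CPM) and NCI-N87 cells (18 to 20.2 CPM) were close neighbours in between, with a log2FC of -0.25 ± 0.07 (adjusted p = 0.000635) that was lost without replicate 1 (-0.17, adjusted p = 0.0707). FADD ranged from a median of 22.7 CPM in NCI-N87 and 26.3 CPM in MKN1 cells through 54.3 CPM in MKN7 cells to 143 CPM in Hs746T cells, and all 6 differences between lines passed the test.

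TNFRSF10A, one of the 2 receptors that bind TRAIL with a working death domain, varied least between lines, with medians of 23.2 CPM (MKN1), 27.6 CPM (Hs746T), 30.6 CPM (NCI-N87) and 31.4 CPM (MKN7). Only MKN1 against MKN7 (log2FC -0.31 ± 0.11, adjusted p = 0.0121) and MKN1 against NCI-N87 (-0.43 ± 0.11, adjusted p = 0.000489) passed the test, and without replicate 2 neither did (adjusted p = 0.0599 and 0.113). The other TRAIL receptor, TNFRSF10B, was lower in Hs746T cells (median 36.7 CPM) than in MKN1, NCI-N87 and MKN7 cells (60.8, 64.7 and 69.3 CPM). TNFRSF1A was lowest in MKN7 cells (59.2 CPM), followed by NCI-N87 (141 CPM), MKN1 (154 CPM) and Hs746T cells (216 CPM), and the middle pair did not differ (0.11 ± 0.08, adjusted p = 0.224). CASP8, the initiator protease, had medians between 35.1 CPM (Hs746T) and 68.9 CPM (NCI-N87), and CFLAR, its competitor, between 47.5 CPM (MKN1) and 89.4 CPM (NCI-N87).

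The ligand TNFSF15 split the lines into 2 and 2. Its untreated level was 45.7 to 66.5 CPM in MKN7 and 20.7 to 33.9 CPM in NCI-N87 cells but 0.783 to 4.35 CPM in MKN1 and 0.364 to 1.62 CPM in Hs746T cells. MKN7 exceeded Hs746T cells by a log2FC of 5.88 ± 0.32 (adjusted p = 7e-32), and even the closer lines MKN7 and NCI-N87 differed (0.86 ± 0.25, adjusted p = 0.00111). TNFSF10 was lowest in MKN7 cells (0.347 to 0.946 CPM), then Hs746T cells (1.42 to 2.04 CPM), and reached 6.04 to 12.8 CPM in NCI-N87 cells. In MKN1 cells it spread from 1.27 to 32.2 CPM, with all 3 libraries of 24 h above all 3 libraries of 4 h. Averaged over both times, the difference in TNFSF10 between MKN1 and NCI-N87 cells did not pass the test (-0.36 ± 0.17, adjusted p = 0.052). This average joined opposite signs. The mean of MKN1 cells lay below that of NCI-N87 cells at 4 h (6.65 CPM in NCI-N87) and above it at 24 h (9.51 CPM in NCI-N87). The 2 times were not tested separately between lines.

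Of the 10 genes, 7 differed between untreated MKN1 and MKN7 cells (71.9% of the 22832 genes tested), 8 between MKN1 and NCI-N87 (75.8%), 8 between MKN1 and Hs746T (76.5%) and 8 between MKN7 and NCI-N87 cells (73.3%). In the other two comparisons 9 differed between MKN7 and Hs746T (74.3%) and 7 between NCI-N87 and Hs746T cells (76.3%). These shares of the 10 genes lay close to those of all genes. Compared per length of the principal transcript, TNFRSF21 was the most abundant of the 10 genes in MKN1 (192 CPM per kb) and MKN7 cells (186 CPM per kb) and TNFRSF1A in Hs746T (97.1 CPM per kb) and NCI-N87 cells (63.3 CPM per kb). The ligands took places 7 to 10 in every line, with TNFSF10 last in MKN7 (0.226 CPM per kb) and NCI-N87 cells (3.69 CPM per kb) and TNFSF15 last in MKN1 (0.252 CPM per kb) and Hs746T cells (0.135 CPM per kb).

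**Figure D1:**
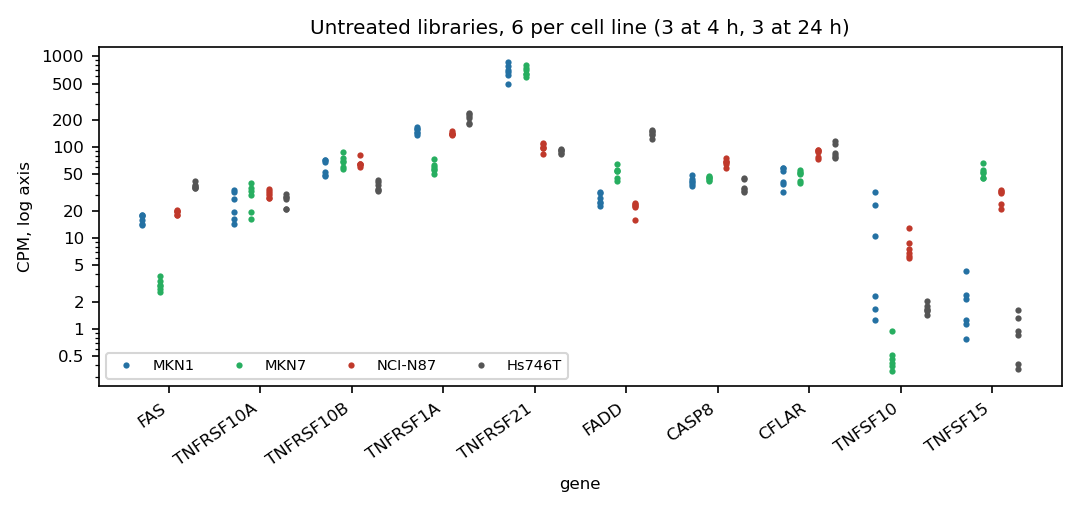
Levels of the 10 genes in untreated cells, in CPM on a log axis, for the 4 cell lines, with 1 point per library (6 per line, 4 h and 24 h). TNFRSF21 separates MKN1 and MKN7 from the other lines, FAS is lowest in MKN7 (2.55 to 3.84 CPM), TNFSF15 is highest in MKN7 and NCI-N87, and TNFSF10 of MKN1 runs from 1.27 to 32.2 CPM.

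Afatinib lowered the TRAIL receptors and raised their ligand in NCI-N87 cells, and in part in MKN7 and MKN1 cells. In NCI-N87 cells TNFRSF10A stood at 33.1, 34.2 and 27.3 CPM without treatment and at 8.83, 8.39 and 6.37 CPM after 4 h of afatinib (log2FC -2.00 ± 0.14, adjusted p = 1.63e-09). After 24 h it stood at 27.3, 30 and 31.2 CPM without and 3.41, 3.82 and 3.23 CPM with afatinib (-3.11 ± 0.15, adjusted p = 2.07e-13). At both times the treated libraries were all far below the untreated ones. In MKN7 cells TNFRSF10A went from 35.3, 33 and 40.6 CPM to 9.59, 8.23 and 7.85 CPM after 4 h (-2.12 ± 0.22, adjusted p = 5.17e-07). After 24 h it went from 19.1, 16.2 and 29.8 CPM to 4.79, 3.79 and 5.1 CPM (-2.26 ± 0.23, adjusted p = 9.31e-08). The drop was thus of like size at both times in this line, and again the groups did not overlap.

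In MKN1 cells TNFRSF10A fell less, from 32.1, 27.2 and 33.7 CPM to 19.5, 18.7 and 20.2 CPM after 4 h (log2FC -0.69 ± 0.12, adjusted p = 0.000414). After 24 h it fell from 16, 14.4 and 19.2 CPM to 14, 10.9 and 10.3 CPM (-0.51 ± 0.12, adjusted p = 0.00214). The groups did not overlap at either time, although at 24 h the highest treated library lay just under the lowest untreated one. The 4 h call was lost without replicate 1 (-0.67, adjusted p = 0.0653) and the 24 h call without replicate 3 (-0.30, adjusted p = 0.261). In Hs746T cells TNFRSF10A was 30.8, 28.3 and 28.2 CPM untreated and 26.2, 24.3 and 23.8 CPM after 4 h of afatinib (-0.19, adjusted p = 0.787). These groups did not overlap, and with the replicate number as a block the difference passed the test (-0.19, adjusted p = 0.0151).

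TNFRSF10B showed the same direction with smaller steps. In NCI-N87 cells it went from 66, 81.5 and 64.3 CPM to 38, 40 and 42.3 CPM after 4 h (log2FC -0.81 ± 0.09, adjusted p = 1.88e-06). After 24 h the step was from 64.9, 64.4 and 60.4 CPM to 30, 30.3 and 33.5 CPM (-1.05 ± 0.09, adjusted p = 3.25e-09). In MKN7 cells it went from 68.8, 75 and 69.8 CPM to 34.1, 37.5 and 29.9 CPM after 4 h (-1.11 ± 0.14, adjusted p = 7.4e-06). The 24 h values in MKN7 cells were 59.9, 57.8 and 87.8 CPM against 37.9, 34.6 and 38.4 CPM (-0.90 ± 0.14, adjusted p = 2.2e-05). None of these groups overlapped, and the untreated MKN7 library of replicate 3 at 24 h stood above the other two. In MKN1 cells TNFRSF10B did not pass the test at 4 h (71.5, 68.2 and 72.4 CPM untreated and 70.5, 56.7 and 67.9 CPM with afatinib, -0.14, adjusted p = 0.347, with the replicate block 0.0315). The same held at 24 h (-0.14, adjusted p = 0.138, with the replicate block 0.0109).

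**Figure D2:**
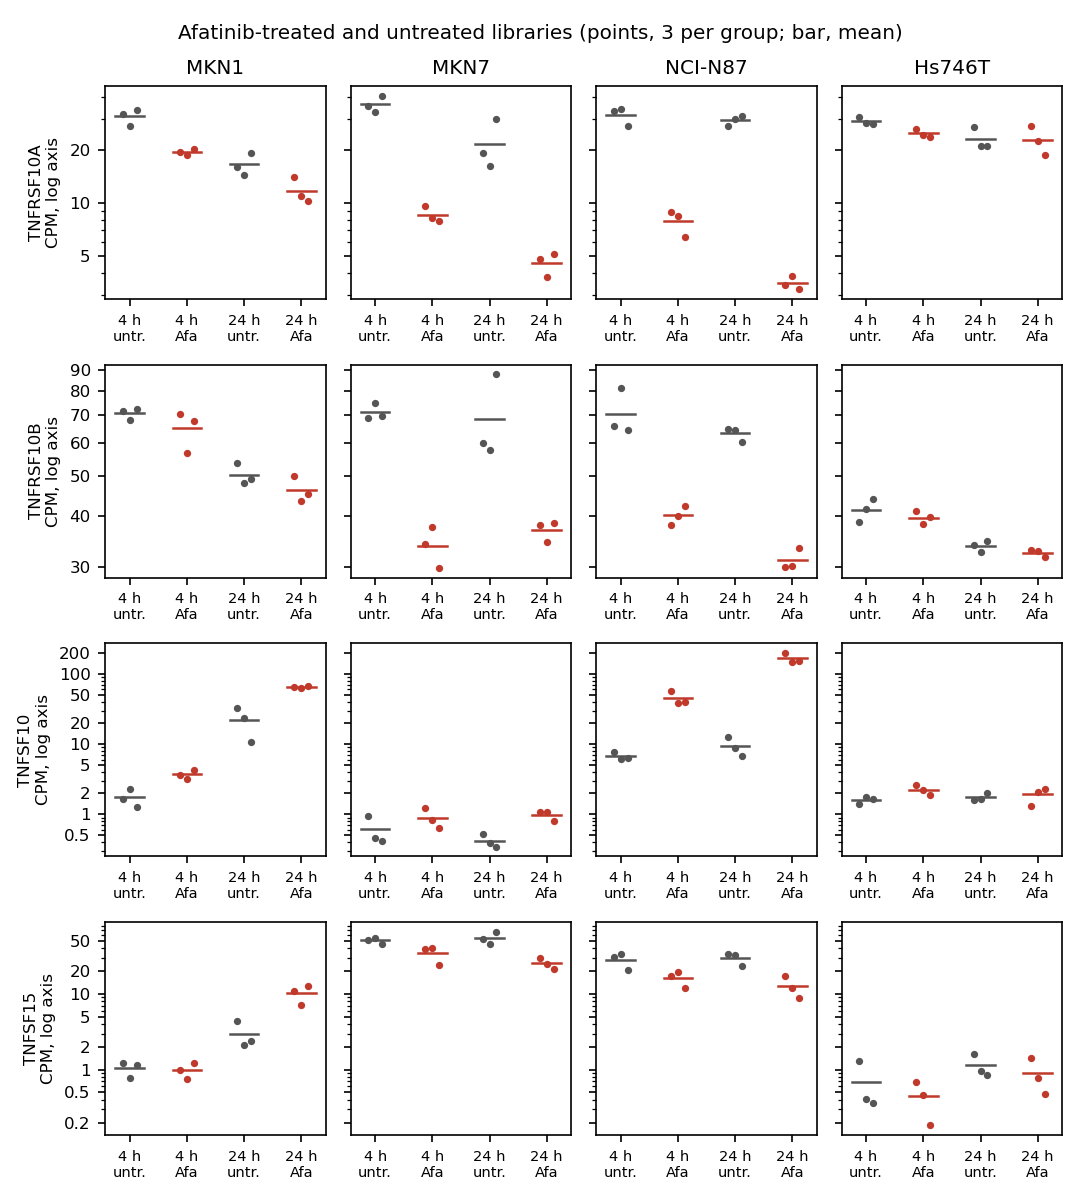
Levels of TNFRSF10A, TNFRSF10B, TNFSF10 and TNFSF15 (rows) in untreated cells (grey) and after afatinib (red) in the 4 lines (columns) at 4 h and 24 h, in CPM on a log axis, with 1 point per library (3 per group) and a bar at the mean. TNFRSF10A of treated NCI-N87 cells reaches 3.23 to 3.82 CPM at 24 h while TNFSF10 reaches 149 to 197 CPM, and in Hs746T cells treated and untreated points lie close together.

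Of the remaining receptors, FAS and TNFRSF21 fell at both times in NCI-N87 cells, while TNFRSF1A fell at 4 h alone in NCI-N87, MKN7 and MKN1 cells. FAS, the receptor of FAS ligand, was 19.6, 19.4 and 19.7 CPM untreated and 15.7, 14 and 16.7 CPM after 4 h (log2FC -0.33 ± 0.10, adjusted p = 0.0187). The 24 h values were 20.2, 18 and 18.1 CPM untreated and 7.13, 7.55 and 8.5 CPM treated (-1.31 ± 0.10, adjusted p = 2.78e-10). The FAS groups were apart at both times, although the call at 4 h was lost without replicate 1 or 2 (adjusted p = 0.0903 and 0.215). TNFRSF21 went from 111, 98.6 and 84.7 CPM to 63.8, 54.4 and 47.4 CPM after 4 h (-0.83 ± 0.14, adjusted p = 0.00021). At 24 h it stood at 109, 100 and 98.9 CPM untreated and 42.4, 36.5 and 37.8 CPM treated (-1.43 ± 0.14, adjusted p = 1.81e-08). Both FAS and TNFRSF21 thus had the larger difference at 24 h. TNFRSF1A fell at 4 h only, from 143, 152 and 141 CPM to 119, 109 and 112 CPM (-0.36 ± 0.08, adjusted p = 0.00443). This call was lost without replicate 2 or 3 (adjusted p = 0.107 and 0.055), and at 24 h TNFRSF1A was 138, 135 and 140 CPM untreated and 151, 157 and 152 CPM treated (0.12 ± 0.08, adjusted p = 0.213).

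In MKN7 cells TNFRSF1A also fell at 4 h, from 55.4, 50.4 and 61 CPM to 40.7, 40.3 and 41.4 CPM (log2FC -0.48 ± 0.10, adjusted p = 0.00149), and did not pass the test at 24 h (0.05). FAS of MKN7 cells, already at a few CPM, was 2.55, 2.77 and 3.02 CPM untreated and 2.1, 1.83 and 2.57 CPM after 24 h (-0.37 ± 0.13, adjusted p = 0.0255). These groups overlapped, and the call was lost without replicate 1 or 2 (adjusted p = 0.0748 and 0.246). TNFRSF21 of MKN7 cells, the most abundant of the receptors there, gave log2FC of -0.08 at 4 h and -0.11 at 24 h and passed no test. In MKN1 cells TNFRSF1A fell at 4 h from 142, 148 and 167 CPM to 109, 98.8 and 124 CPM (-0.47 ± 0.11, adjusted p = 0.0103). TNFRSF21 of MKN1 cells fell at 4 h from 786, 703 and 854 CPM to 599, 490 and 625 CPM (-0.47 ± 0.13, adjusted p = 0.0361). Neither passed a test at 24 h. Both MKN1 calls were lost without replicate 1 (adjusted p = 0.179 and 0.362) or replicate 3 (adjusted p = 0.136 and 0.258).

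Within the signalling complex the changes were small. The adaptor FADD was at 23, 21.7 and 23.6 CPM in untreated and 12.6, 12.9 and 16.7 CPM in afatinib-treated NCI-N87 cells at 24 h (log2FC -0.73 ± 0.13, adjusted p = 5.86e-05). In MKN7 cells it fell from 54.2, 42.6 and 64.5 CPM to 39.7, 34.1 and 38.6 CPM at 24 h (-0.53 ± 0.14, adjusted p = 0.00257). In MKN1 cells it fell from 22.7, 24.3 and 25 CPM to 18.1, 22.2 and 16.6 CPM at 24 h (-0.36 ± 0.08, adjusted p = 0.00195). In none of these comparisons did the groups overlap, and the MKN1 call was lost without replicate 3 (-0.23, adjusted p = 0.252). At 4 h FADD passed the test in none of the 3 lines.

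CFLAR, the competitor of caspase 8, moved in opposite directions. It rose in NCI-N87 cells after 24 h, from 91.5, 87.4 and 77.1 CPM to 123, 118 and 100 CPM (log2FC 0.38 ± 0.12, adjusted p = 0.00665, without replicate 2 0.0627). In MKN7 cells it fell, from 52.4, 51 and 53.7 CPM to 39.6, 42.1 and 40.6 CPM after 4 h (-0.40 ± 0.10, adjusted p = 0.00563, without replicate 1 0.114). The MKN7 values after 24 h were 42.1, 39.8 and 56.1 CPM untreated and 34, 35.7 and 35.9 CPM treated (-0.39 ± 0.10, adjusted p = 0.00244). A fall was also seen in MKN1 cells, at 4 h alone (59.4, 54 and 59.4 CPM to 43.7, 34.1 and 46.5 CPM, -0.49 ± 0.11, adjusted p = 0.00876, without replicate 1 0.215 and without replicate 3 0.107). All these groups of CFLAR were apart. CASP8 passed the test once, in NCI-N87 cells after 4 h (65.8, 68.8 and 58.7 CPM to 52.7, 54.7 and 48.6 CPM, -0.30 ± 0.09, adjusted p = 0.0233). This call was lost without any 1 of the 3 replicates (adjusted p = 0.0721 to 0.116). With the replicate block it also passed at 24 h in NCI-N87 cells (-0.20, adjusted p = 0.00313, without the block 0.064) and at 4 h in MKN7 cells (-0.17, adjusted p = 0.00793, without the block 0.101).

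The ligand TNFSF10 rose in all 3 lines that the study calls afatinib responders. In NCI-N87 cells it went from 7.63, 6.04 and 6.3 CPM to 57.1, 38.4 and 39.6 CPM after 4 h (log2FC 2.76 ± 0.25, adjusted p = 8.64e-08). The step after 24 h was from 12.8, 8.89 and 6.8 CPM to 197, 149 and 152 CPM (4.09 ± 0.26, adjusted p = 1.92e-11). This was the largest log2FC of any of the 10 genes in any comparison with untreated cells. In MKN1 cells TNFSF10 went from 1.64, 2.3 and 1.27 CPM to 3.66, 3.22 and 4.28 CPM after 4 h (1.08 ± 0.30, adjusted p = 0.0345), a call that was lost without any 1 of the 3 replicates (0.81 to 1.42, adjusted p = 0.0551 to 0.305). After 24 h the untreated MKN1 libraries were spread over 32.2, 23.1 and 10.6 CPM while the treated ones lay close together at 64.3, 63.5 and 66.2 CPM (1.54 ± 0.24, adjusted p = 1.99e-05).

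MKN7 cells held the lowest level of TNFSF10, which was 0.522, 0.393 and 0.347 CPM untreated and 1.07, 1.09 and 0.812 CPM after 24 h of afatinib (log2FC 1.22 ± 0.35, adjusted p = 0.00612, without replicate 2 1.10 and 0.0977). At 4 h the groups overlapped (0.946, 0.464 and 0.42 CPM against 1.23, 0.828 and 0.639 CPM, 0.54 ± 0.35, adjusted p = 0.305). In Hs746T cells the values were 1.42, 1.78 and 1.63 CPM against 2.58, 2.19 and 1.91 CPM after 4 h (0.51 ± 0.21, adjusted p = 0.678). At 24 h the Hs746T values were 1.59, 1.64 and 2.04 CPM against 1.33, 2.1 and 2.32 CPM (0.12). The 4 h groups did not overlap and passed the test with the replicate block (0.52, adjusted p = 0.0165), whereas the 24 h groups overlapped.

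TNFSF15, the ligand of the receptor DR3, moved in opposite directions in different lines. In NCI-N87 cells it was 33.3, 32.3 and 23.7 CPM untreated and 17.1, 11.9 and 8.95 CPM after 24 h of afatinib (log2FC -1.27 ± 0.29, adjusted p = 0.000753). In MKN7 cells it was 53.2, 45.7 and 66.5 CPM untreated and 30.1, 25.3 and 21.3 CPM treated (-1.12 ± 0.21, adjusted p = 0.000142). In MKN1 cells it rose, from 4.35, 2.13 and 2.39 CPM to 10.8, 7.07 and 12.8 CPM (1.77 ± 0.25, adjusted p = 3.82e-06). In all 3 lines the groups were apart at 24 h. TNFSF15 thus stood lower in MKN7 and NCI-N87 cells, which held much of it, and higher in MKN1 cells, which held little. Hs746T cells held still less (median over all libraries of 0.779 CPM, against 1.56 CPM in MKN1 cells). After 24 h of afatinib TNFSF15 passed no test in Hs746T cells, where the log2FC of all genes followed here lay between -0.35 and 0.12. Whether TNFSF15 moved according to its starting level was not tested. At 4 h it fell in MKN7 cells (52.1, 55.6 and 46 CPM to 39.5, 40.5 and 24.3 CPM, -0.60 ± 0.21, adjusted p = 0.042, lost without replicate 1 or 2, adjusted p = 0.129 and 0.164). The NCI-N87 values at 4 h were 31.1, 33.9 and 20.7 CPM against 17.5, 19.7 and 12.1 CPM (-0.80 ± 0.29, adjusted p = 0.0612), which did not overlap and passed the test with the replicate block (adjusted p = 1.43e-05).

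**Figure D3:**
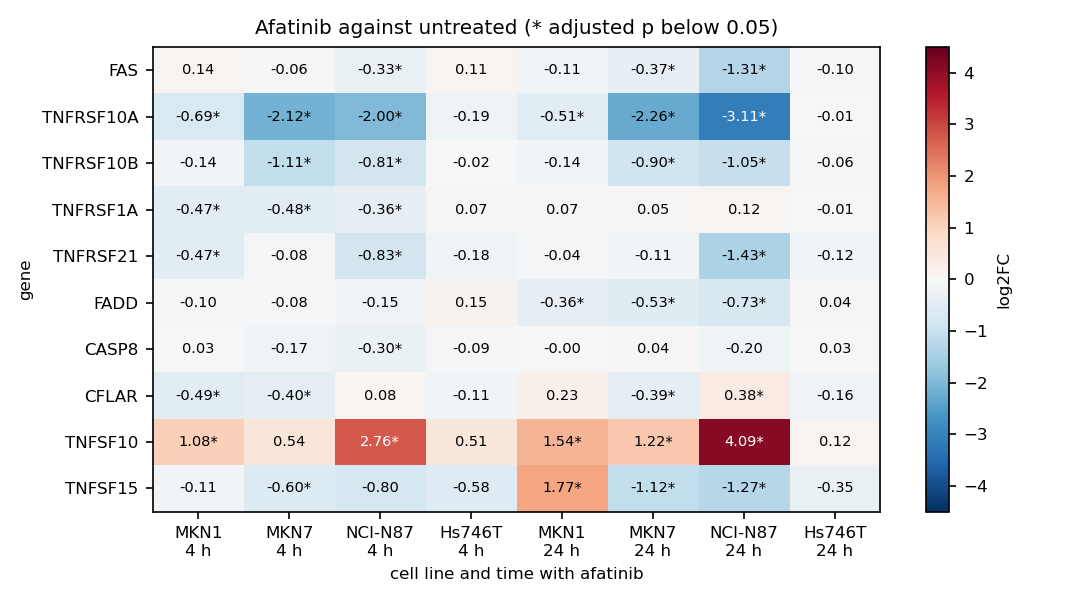
Heat map of the log2FC of afatinib against untreated cells for the 10 genes (rows) in the 4 lines at 4 h and 24 h (columns), with the value in each field, colour from blue (lower) to red (higher) and an asterisk for an adjusted p below 0.05. TNFRSF10A has negative values in MKN1, MKN7 and NCI-N87 cells, down to -3.11, TNFSF10 has positive values up to 4.09, and no Hs746T column carries an asterisk.

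By number, 7 of the 10 genes changed after 4 h of afatinib in NCI-N87 cells, where 18.2% of all tested genes did, and 8 after 24 h, where 62.5% did. In MKN7 cells 5 (22.2% of all genes) and 7 (51.6%) changed, and in MKN1 cells 5 (3.68%) and 4 (25.6%). The MKN1 count at 4 h was 0 without replicate 1, 1 without replicate 3 and 1 with only the compared libraries in the fit, and that at 24 h was 2 without replicate 3. The NCI-N87 count at 4 h was 4 without replicate 2 and the MKN7 count at 4 h was 3 without replicate 1. At 24 h 6 of the 10 were regulated in NCI-N87 cells against 29.6% of all genes, 3 in MKN7 cells against 13.5% and 2 in MKN1 cells against 4.19%. The 24 h shares of changed genes were thus not far from those of all genes in MKN7 and NCI-N87 cells. The median log2FC of the 10 genes was lower than that of all genes in both, at -0.89 against 0.03 in NCI-N87 and -0.38 against 0.04 in MKN7 cells. In MKN1 cells the medians at 24 h were -0.02 and 0.01. Scaled by library size alone, the log2FC of all genes moved by a median of 0.26 in NCI-N87 and 0.11 in MKN7 cells at 24 h, and none of the changes of the 10 genes turned its direction.

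The effect of afatinib after 24 h differed between lines for most of the genes, with 6 passing between MKN1 and NCI-N87 (28% of all genes), 5 between MKN7 and NCI-N87 (21.4%) and 3 between MKN1 and MKN7 cells (7.61%). TNFRSF10A fell more in NCI-N87 than in MKN1 cells by a log2FC of 2.58 ± 0.24 (adjusted p = 6.36e-16) and than in MKN7 cells by 0.83 ± 0.24 (adjusted p = 0.0062). The latter was lost without replicate 1 or 2 (adjusted p = 0.0634 and 0.0541). FAS fell more in NCI-N87 than in MKN1 cells by 1.19 ± 0.13 (adjusted p = 4.36e-12) and TNFRSF21 by 1.38 ± 0.16 (adjusted p = 3.73e-11). The effect on TNFSF10 was higher in NCI-N87 than in Hs746T cells by 4.01 ± 0.37 (adjusted p = 1.93e-16). TNFSF15 of MKN1 cells differed from that of MKN7 by 2.89 ± 0.51 (adjusted p = 2.42e-05) and of NCI-N87 cells by 3.02 ± 0.52 (adjusted p = 1.35e-06). CFLAR also differed, by -0.80 ± 0.24 between MKN7 and NCI-N87 cells (adjusted p = 0.00774, without replicate 2 0.0577 and without replicate 3 0.116). Against Hs746T cells, 7 genes differed in NCI-N87 (35.1% of all genes), 3 in MKN7 (18.8%, and 5 with the replicate block) and 2 in MKN1 cells (4.41%). The 2 in MKN1 cells were the ligands, TNFSF10 (1.43 ± 0.36, adjusted p = 0.00784) and TNFSF15 (2.15 ± 0.60, adjusted p = 0.019), with both lost without replicate 2 (adjusted p = 0.097 and 0.182) or replicate 3 (adjusted p = 0.387 and 0.526).

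Within NCI-N87 cells the effect of afatinib on 6 of the 10 genes was different at 24 h from that at 4 h (35.8% of all genes). It was more negative for TNFRSF10A (difference in log2FC -1.11 ± 0.19, adjusted p = 0.000128), FAS (-0.98 ± 0.14, adjusted p = 1.24e-05), TNFRSF21 (-0.61) and FADD (-0.58), and more positive for TNFSF10 (1.33 ± 0.34, adjusted p = 0.00412) and TNFRSF1A (0.48). Scaled by library size alone, TNFRSF21 (-0.41, adjusted p = 0.142) and FADD (-0.40, adjusted p = 0.0503) did not pass. The differences of TNFRSF21, FADD, TNFSF10 and TNFRSF1A were lost without replicate 2 (adjusted p = 0.186, 0.131, 0.0559 and 0.0648), FADD also without replicate 1 (0.266) and TNFRSF21 and TNFSF10 also without replicate 3 (0.075 and 0.0576). In MKN7 cells 1 gene differed (18%), TNFRSF1A (0.53 ± 0.14, adjusted p = 0.0132), and in MKN1 cells 2 (2.77%), CFLAR (0.72 ± 0.16, adjusted p = 0.0115) and TNFSF15 (1.88 ± 0.40, adjusted p = 0.00707). The MKN7 call was lost without any 1 replicate (adjusted p = 0.0516 to 0.152) and both MKN1 calls without replicate 1 (adjusted p = 0.227 and 0.0853) or replicate 3 (adjusted p = 0.19 and 0.141).

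In MKN1 cells the TRAIL receptors were higher with EGF than without at both times, and their ligand was lower than in untreated cells at 24 h. TNFRSF10A was 45.9, 40.8 and 46.4 CPM after 4 h of EGF, against 32.1, 27.2 and 33.7 CPM untreated (log2FC 0.53 ± 0.12, adjusted p = 0.00386, without replicate 1 0.132). After 24 h it was 32.1, 27.1 and 30.4 CPM against 16, 14.4 and 19.2 CPM (0.87 ± 0.12, adjusted p = 1.13e-06). TNFRSF10A thus stood above the untreated libraries at both times. TNFRSF10B was 112, 107 and 109 CPM at 4 h, against 71.5, 68.2 and 72.4 CPM untreated (0.64 ± 0.07, adjusted p = 4.5e-08). At 24 h it was 67.4, 56.6 and 62.2 CPM against 53.5, 48.1 and 49.1 CPM (0.32 ± 0.07, adjusted p = 0.000399). Again no group overlapped. CFLAR rose as well, from 59.4, 54 and 59.4 CPM to 108, 92.2 and 94.3 CPM at 4 h (0.78 ± 0.11, adjusted p = 1.02e-05). Its 24 h values were 39.2, 32.4 and 41 CPM untreated and 67.2, 64.2 and 66.9 CPM with EGF (0.84 ± 0.11, adjusted p = 8.24e-07).

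After 24 h of EGF the ligand TNFSF10 stood at 1.97, 2.37 and 2.11 CPM where untreated MKN1 cells had 32.2, 23.1 and 10.6 CPM (log2FC -3.33 ± 0.28, adjusted p = 1.19e-10). After 4 h it did not pass the test (-0.55 ± 0.34, adjusted p = 0.449). Untreated cells held far more TNFSF10 at 24 h than at 4 h (log2FC 3.64). The level with EGF at 24 h lay near the untreated level of 4 h. TNFSF15 was higher than untreated at 4 h (2, 1.93 and 2.94 CPM against 1.24, 0.783 and 1.14 CPM, 1.11 ± 0.29, adjusted p = 0.0123). It was lower at 24 h (0.685, 1.01 and 1.46 CPM against 4.35, 2.13 and 2.39 CPM, -1.46 ± 0.28, adjusted p = 0.000116). The groups of TNFSF15 did not overlap. The first call was lost without replicate 2 or 3 (adjusted p = 0.0934 and 0.121) and the second without replicate 1 (-0.84, adjusted p = 0.0843), whose untreated library was the highest. FADD rose at 24 h (30.7, 34.3 and 31.2 CPM, 0.44 ± 0.08, adjusted p = 0.000116). FAS fell (12.2, 13.4 and 12.2 CPM against 18, 17.5 and 18 CPM, -0.48 ± 0.10, adjusted p = 0.000186). TNFRSF1A rose at 4 h (0.36 ± 0.11, adjusted p = 0.0432) and 24 h (0.32 ± 0.11, adjusted p = 0.0236), and both calls were lost without replicate 1 (adjusted p = 0.529 and 0.118). Scaled by library size alone, which moved the log2FC of all genes by a median of -0.20 at 24 h, TNFRSF10B (0.13, adjusted p = 0.18) and TNFRSF1A (0.12, adjusted p = 0.393) did not pass at 24 h. In all, 5 of the 10 genes changed at 4 h (6.82% of all genes) and 8 at 24 h (35.8%), with a median log2FC at 24 h of 0.32 against -0.05 over all genes. The effect of EGF at 24 h differed between MKN1 and Hs746T cells for 4 genes (7.93% of all genes), namely TNFSF10 (difference in log2FC -3.41 ± 0.38, adjusted p = 8.73e-11), TNFRSF10A (0.85 ± 0.23, adjusted p = 0.00932), CFLAR (0.83 ± 0.24, adjusted p = 0.0148) and FAS (-0.51 ± 0.13, adjusted p = 0.00596). Without replicate 1, 2 or 3 this count was 2, 1 and 2, and TNFSF10 was the gene that passed each time. Scaled by library size alone, CFLAR did not pass (0.68, adjusted p = 0.0558).

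Cetuximab alone gave the reverse picture for the ligands. After 24 h TNFSF10 was at 67.4, 56.4 and 54.6 CPM (log2FC 1.42 ± 0.24, adjusted p = 0.000324). TNFSF15 was at 12.9, 11.4 and 14 CPM (2.09 ± 0.25, adjusted p = 8.15e-06). Both ligands stood above all untreated libraries. FADD fell slightly (20.3, 17.9 and 19.2 CPM, -0.35 ± 0.08, adjusted p = 0.00699, without replicate 3 0.177), so that 3 of the 10 genes changed where 10.8% of all genes did. With the replicate block 6 passed at 24 h, the others being TNFRSF10A (-0.32, adjusted p = 0.0064), TNFRSF10B (-0.13, adjusted p = 0.0225) and CFLAR (0.18, adjusted p = 0.0212). After 4 h only TNFRSF10A passed the test (21.8, 19.9 and 22.8 CPM, -0.54 ± 0.12, adjusted p = 0.0126, with 1.43% of all genes), and the call was lost without replicate 1 or 3 (adjusted p = 0.312 and 0.18). With the replicate block 4 genes passed at 4 h, the others being CFLAR (-0.43, adjusted p = 7.58e-06), TNFRSF1A (-0.35, adjusted p = 0.00511) and TNFRSF21 (-0.33, adjusted p = 3.52e-05). The 10.8% and the 1.43% are the shares of all genes without the block. TNFSF10 was 3.29, 2.93 and 3.82 CPM at 4 h, above all untreated libraries (0.94 ± 0.30, adjusted p = 0.134). The effect of cetuximab at 24 h passed no test of a difference between MKN1 and Hs746T cells with edgeR (0.267% of all genes did), with TNFSF10 (1.21 ± 0.36, adjusted p = 0.12) and TNFSF15 (1.97 ± 0.59, adjusted p = 0.121) the 2 of the 10 genes at an unadjusted p below 0.05. This count was 2 without replicate 1. The comparisons of EGF, cetuximab and afatinib share the same untreated libraries.

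When EGF and cetuximab were combined, 2 genes changed against untreated at 4 h (0.717% of all genes), TNFRSF10B (log2FC 0.40 ± 0.07, adjusted p = 0.00119) and CFLAR (0.53 ± 0.11, adjusted p = 0.0139). Both calls were lost without replicate 1 (adjusted p = 0.164 and 0.827) or replicate 3 (adjusted p = 0.147 and 0.164). With the replicate block TNFRSF10A (0.36, adjusted p = 0.00751) and TNFRSF1A (0.28, adjusted p = 0.0406) also passed. At 24 h 5 genes changed (18.6%), of which TNFSF10 was at 3.51, 3.39 and 3.85 CPM (-2.61 ± 0.27, adjusted p = 5.04e-08). TNFSF15 was at 0.662, 1.06 and 0.847 CPM (-1.78 ± 0.29, adjusted p = 4.7e-05) and TNFRSF10A at 27.9, 20.9 and 25.8 CPM (0.59 ± 0.12, adjusted p = 0.000744). Without replicate 1 the count was 1, with TNFSF15 at -1.23 (adjusted p = 0.0611) and TNFRSF10A at 0.49 (adjusted p = 0.144). With the replicate block the count was 8, the added genes being CFLAR (0.19, adjusted p = 0.0128), TNFRSF10B (0.18, adjusted p = 0.00191) and TNFRSF21 (0.24, adjusted p = 0.000418). Set directly against EGF alone, the combination changed 1 gene at 24 h (0.646%), CFLAR, which was 43.5, 40 and 44.3 CPM (-0.65 ± 0.11, adjusted p = 0.00182, without replicate 1 0.219 and without replicate 3 0.0564). The difference in TNFSF10 between these arms (0.72 ± 0.29, adjusted p = 0.342) did not pass the test. With the replicate block TNFRSF10A (-0.28, adjusted p = 0.0365) and TNFRSF10B (-0.14, adjusted p = 0.042) passed as well at 24 h. At 4 h no gene passed (0.701% of all genes without the block), while with the replicate block CFLAR (-0.25, adjusted p = 0.00849) and TNFRSF10B (-0.24, adjusted p = 0.000565) did.

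**Figure D4:**
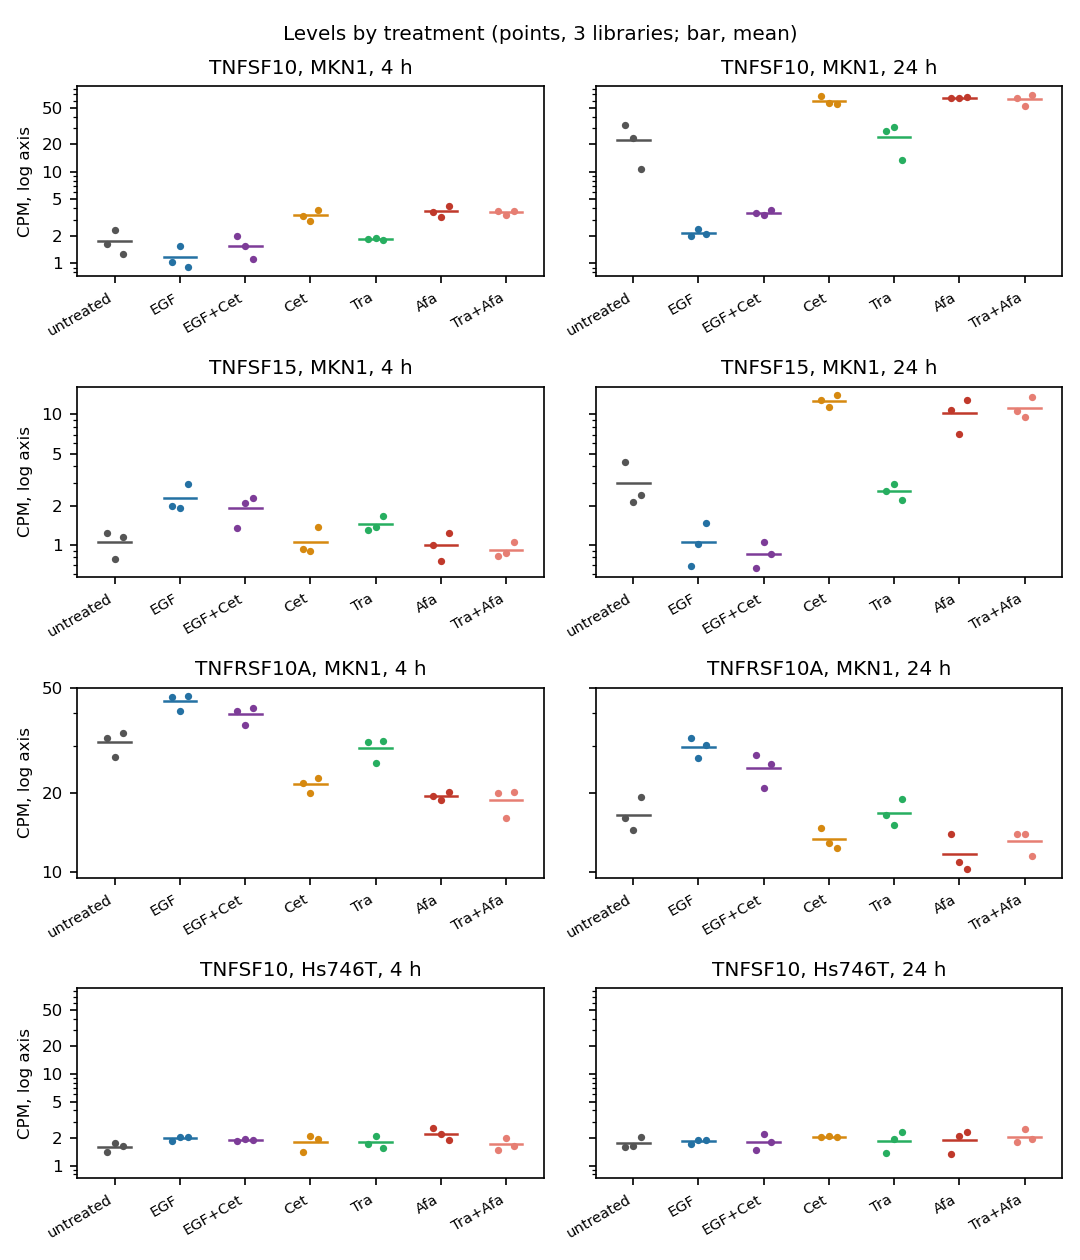
Levels of TNFSF10, TNFSF15 and TNFRSF10A in MKN1 cells and of TNFSF10 in Hs746T cells (rows) in untreated cells and under the 6 treatments at 4 h (left) and 24 h (right), in CPM on a log axis, with 1 point per library (3 per condition) and a bar at the mean. In MKN1 cells at 24 h TNFSF10 lies at 1.97 to 3.85 CPM with EGF present and at 54.6 to 67.4 CPM with cetuximab alone, and in Hs746T cells it stays between 1.33 and 2.58 CPM throughout.

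Time alone changed 8 of the 10 genes in untreated MKN1 cells (34.1% of all genes), 5 of them when replicate 1 was left out. TNFSF10 had a mean of 1.74 CPM at 4 h and 22.0 CPM at 24 h (log2FC 3.64 ± 0.29, adjusted p = 4.25e-11) and TNFSF15 of 1.05 and 2.95 CPM (1.46 ± 0.28, adjusted p = 0.000137). TNFRSF10A (-0.93 ± 0.12, adjusted p = 3.78e-07), CFLAR (-0.64 ± 0.11, adjusted p = 4.45e-05) and TNFRSF10B (-0.51 ± 0.07, adjusted p = 5.77e-07) were lower at 24 h. The effects of the treatments at 24 h in this line are therefore measured against controls that had themselves moved since 4 h. In MKN7 cells TNFRSF10A alone passed (-0.78 ± 0.21, adjusted p = 0.0155, against 16.4% of all genes), and the call was lost without replicate 1 or 2 (adjusted p = 0.225 and 0.113). With the replicate block CFLAR (-0.23), FAS (-0.31) and TNFRSF1A (0.20) passed as well. In Hs746T cells TNFRSF10B passed (-0.26 ± 0.06, adjusted p = 0.022, against 1.48% of all genes), and the call was lost without replicate 2 or 3 (adjusted p = 0.36 and 0.873). With the block TNFRSF10A (-0.32) and TNFSF15 (0.87) passed too. In NCI-N87 cells no gene passed (0.267% of all genes, 1 of the 10 at an unadjusted p below 0.05), while with the block TNFSF10 did (0.51, adjusted p = 0.0066).

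Trastuzumab left no call in any line. Over 8 comparisons with untreated cells and 80 tests of the 10 genes, 0 passed with edgeR, 0 with DESeq2, 0 with the replicate block and 1 had an unadjusted p below 0.05, with log2FC from -0.45 to 0.47. In each line 0% of all genes passed. The 1 value was TNFRSF10A in NCI-N87 cells at 24 h, with 23.8, 26.5 and 21.6 CPM against 27.3, 30 and 31.2 CPM (-0.31), which did not overlap. The groups of TNFRSF1A did not overlap there either (means of 130 against 138 CPM, -0.10). The share of all genes whose groups did not overlap was not computed. Trastuzumab added to afatinib was likewise not told apart from afatinib alone (0% of all genes passed). Of the 10 genes, 0 of 80 tests passed with edgeR, DESeq2 or the block and 0 had an unadjusted p below 0.05, with log2FC from -0.39 to 0.27. For TNFSF10 in NCI-N87 cells at 24 h, the combination gave 171, 153 and 145 CPM and afatinib alone 197, 149 and 152 CPM (log2FC -0.09, approximate 95% interval -0.54 to 0.35). For TNFRSF10A in the same cells the log2FC was 0.20 with an interval from -0.09 to 0.49.

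In Hs746T cells no gene passed the test against untreated cells under any of the treatments. For EGF, cetuximab, afatinib and the combinations this covered 100 tests in 10 comparisons, with 0 calls by edgeR, 0 by DESeq2, 3 at an unadjusted p below 0.05 and log2FC from -0.58 to 0.51, and 0% of all genes passed in each comparison. With the replicate block 6 passed, 5 of them with afatinib alone, namely TNFRSF10A, TNFRSF21 (-0.18, adjusted p = 0.00683), CFLAR (-0.11, adjusted p = 0.0496) and TNFSF10 at 4 h and CFLAR at 24 h (-0.17, adjusted p = 0.0324), and 1 with Tra + Afa, CFLAR at 24 h (-0.19, adjusted p = 0.0114). The 0% of all genes belongs to the fit without the block, and the share with the block was not computed. The replicates of this line stood apart in several of the genes. Replicate 1 was the highest of the 3 in 14 of 14 conditions for TNFRSF10A, CASP8 (40.6 to 48.9 CPM), CFLAR (95.9 to 119 CPM) and TNFSF15 (0.679 to 1.99 CPM). Other lines held such patterns too, since in MKN1 cells replicate 2 was lowest in 14 of 14 conditions for TNFRSF21 and CFLAR, and in NCI-N87 cells replicate 1 was highest in 8 of 8 conditions for TNFRSF21 and TNFSF10.

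Of 37 other genes of the pathway (decoy receptors, further ligands, adaptors, inhibitors and caspases), 27 to 29 passed the filter in each line. TNFRSF6B, TRAF2, DIABLO and BAK1 were listed at 0 in all 132 libraries, as were the 37 mitochondrial genes. For a gene at 0 in every library, absence of expression and absence from the counting cannot be told apart. FASLG and TNF, the ligands of FAS and TNFRSF1A, had counts in some libraries and reached at most 0.0757 and 0.178 CPM. With afatinib at 24 h 20 of 27 changed in NCI-N87 cells, 10 up and 10 down (62.5% of all genes changed). In MKN7 cells 15 of 28 changed, 7 up and 8 down (51.6%), and in MKN1 cells 9 of 29, 5 up and 4 down (25.6%). Their median log2FC was 0.06, -0.09 and -0.05, near those of all genes. At 4 h the counts were 9 of 27 (18.2% of all genes), 9 of 28 (22.2%) and 3 of 29 (3.68%). TNFRSF1B, the second TNF receptor, which has no death domain, fell in NCI-N87 cells from a mean of 11.7 to 1.61 CPM at 24 h (-2.89, adjusted p = 6.64e-11) and in MKN7 cells from 2.85 to 0.891 CPM (-1.68). The decoy receptor for TRAIL TNFRSF10D fell in MKN7 cells at 24 h from 49 to 16.7 CPM (-1.57, adjusted p = 1e-06) and at 4 h from 62.3 to 31.6 CPM (-1.02), as did EDAR at 24 h (-1.21). In NCI-N87 cells TNFRSF25, the receptor of TNFSF15, rose from 6.85 to 22.7 CPM at 24 h (1.70, adjusted p = 6.48e-10) and the decoy receptor TNFRSF10C from 0.171 to 0.609 CPM (1.78). In MKN1 cells BIRC3, an inhibitor of apoptosis, fell after 4 h of afatinib from 70.3 to 33.1 CPM (-1.10, adjusted p = 0.0023). EGF in MKN1 cells changed 4 of 29 genes at 4 h (6.82% of all genes) and 13 at 24 h (35.8%) and raised TNFAIP3, an inhibitor of NF-kappa B, at 4 h (1.01, 21.5 to 42.9 CPM) and TNFRSF1B at 24 h (1.35, 22.7 to 56.9 CPM).

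In GRCh38, as annotated in GENCODE 29, FAS is at chr10:88990582-89015785 on the plus strand. TNFRSF10A and TNFRSF10B are on the minus strand at chr8:23190452-23225126 and chr8:23020133-23069179, with TNFRSF10C and TNFRSF10D between them. TNFRSF1A is at chr12:6328757-6342114 and TNFRSF21 at chr6:47231532-47309905, both on the minus strand. FADD is at chr11:70203163-70207390. CASP8 and CFLAR are on the plus strand at chr2:201233443-201287711 and chr2:201116104-201176687, with CASP10 between them. The ligand TNFSF10 is at chr3:172505508-172523507 and TNFSF15 at chr9:114784635-114806126, both on the minus strand. Exons of 5 of the 10 genes overlap a gene on the other strand, most of all in FADD, with 54.9% of its exonic bases (AP000879.1). The shares were 8.9% in FAS (ACTA2), 9.0% (AC100861.1) and 7.6% (TNFRSF10A-AS1) in TNFRSF10A, 1.3% in TNFRSF10B (RHOBTB2), and 6.6% (IMPDH1P10) and 3.4% (CFLAR-AS1) in CFLAR. CFLAR also shares 2.0% with AC007283.1 on its own strand. The genes overlapping FADD and CFLAR were listed at 0 in every library, which may mean that they were not counted. The strand setting of the counting was not given in the sources used here, and reads from these stretches are therefore uncertain in origin.

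Across the 44 conditions, centred on the mean of the same line and time, the genes whose levels ran most like those of the receptors were PPP1R18 (r = 0.99), TNFRSF10A-AS1 and TRIM35 (both 0.98) for TNFRSF10A, and NBPF9, TNFRSF10A and TNFRSF10A-AS1 (all 0.97) for TNFRSF10B. TNFRSF21 ran most like HTR7 (0.96), YAP1 and LUCAT1 (both 0.95). For the ligands they were BMF and GBP2 (both 0.98) and PPOX (0.97) for TNFSF10 and RAB31 (0.92), SLC35F5 and CDH3 (both 0.90) for TNFSF15. These are the highest of 15748 genes and are given as a description, since conditions share lines, controls and libraries' scaling, and TNFRSF10A-AS1 overlaps exons of TNFRSF10A on the other strand. Among the 10 genes, TNFRSF10A and TNFRSF10B had an r of 0.97, TNFSF10 one of -0.83 with TNFRSF10A and -0.88 with FADD, and TNFRSF1A one of 0.83 with CFLAR.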

How the data were processed

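The authors extracted RNA with mirVana, selected mRNA with Dynabeads, built NEBNext Ultra II Directional libraries and sequenced them paired-end on an Illumina NovaSeq. Their processing notes name Trim Galore, STAR and hg38, while versions, the counting tool and its strand setting were not given in the sources used here. The deposited files hold raw counts per Ensembl gene, 1 file per library, with no normalization. Of 65217 identifiers, 8404 were not in GENCODE 29 and held 0.0422% of counts, and mitochondrial genes were listed at 0. No pair of replicates held identical values, and the closest of the 132 pairs differed by 6.35 times the sampling variance.

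The 10 genes and the lists of other pathway and marker genes were chosen with earlier results of these data known. Groups came from the labels. Counts were tested with edgeR 4.0.16 (R 4.3.3, TMM scaling, quasi-likelihood test) after a filter at 10 counts in enough libraries and 15 in total, with 1 fit per cell line over all its libraries (64 contrasts) and 1 fit over all lines (22 contrasts) for differences between lines, and p-values were adjusted by Benjamini-Hochberg over all genes of a contrast. All 10 genes are named. Of the other pathway genes at most 3 per afatinib, EGF or cetuximab contrast are named, by absolute log2FC among the regulated. For each of the 10 genes regulated in a treatment contrast, the 3 genes with the highest Pearson r are given, except for FAS, whose result is not reported here. The script was tested on simulated counts. Alternatives were DESeq2 1.42.0 within lines, scaling by library size, leaving out the filter, a filter at 10 counts in each library, fitting just the compared groups, the replicate number as a block within each time point, and leaving out each replicate.

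Same-numbered libraries of a line and time deviated together, with every correlation of deviations above 0.1 in MKN7, NCI-N87 and Hs746T cells and in MKN1 cells at 4 h (lowest 0.11, in Hs746T cells at 4 h). In MKN1 cells at 24 h 56 of 63 pairs were above 0.1 (lowest -0.02), with a mean of 0.24. Libraries of unlike number had a mean of -0.12. Because deviations were taken from the mean of each condition, that value follows from the 0.24 and is no separate reference. The blocked values of MKN1 cells at 24 h are given in the section on the processing. In every line the p-values come from fits without the block unless the block is named, and those fits leave this pairing out of account.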

Additional observations from a re-analysis of the deposited data

Results flagged for a closer look

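These results were singled out because a test of the difference itself found that 1 treatment had unlike effects in a pair of lines at 24 h, or at 24 h and 4 h in 1 line. Groups of 3 are too small for a test for outlying libraries.

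For afatinib at 24 h, the difference in log2FC (first line minus second) was as follows. TNFRSF10A gave 1.76 for MKN1 against MKN7, 2.58 for MKN1 against NCI-N87, 0.83 for MKN7 against NCI-N87, -2.24 for MKN7 against Hs746T and -3.07 for NCI-N87 against Hs746T. TNFRSF10B gave 0.77 for MKN1 against MKN7, 0.89 for MKN1 against NCI-N87, -0.84 for MKN7 against Hs746T and -0.96 for NCI-N87 against Hs746T. FAS gave 1.19 for MKN1 against NCI-N87, 0.92 for MKN7 against NCI-N87 and -1.18 for NCI-N87 against Hs746T, and TNFRSF21 gave 1.38, 1.29 and -1.29 for the same pairs. FADD gave -0.56 for MKN7 (-0.37 without replicate 3, adjusted p = 0.425, edgeR) and -0.74 for NCI-N87 against Hs746T. CFLAR gave -0.80 for MKN7 against NCI-N87 and 0.57 for NCI-N87 against Hs746T, and the latter was lost without replicate 2 or 3 (adjusted p = 0.2 and 0.151) and with no filter (adjusted p = 0.0544). For the ligands, TNFSF10 gave -2.57 for MKN1 and -2.90 for MKN7 against NCI-N87 and 1.43 for MKN1 and 4.01 for NCI-N87 against Hs746T, and TNFSF15 of MKN1 cells gave 2.89 against MKN7, 3.02 against NCI-N87 and 2.15 against Hs746T.

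The effect of EGF at 24 h differed between MKN1 and Hs746T cells by -3.41 for TNFSF10, 0.85 for TNFRSF10A, 0.83 for CFLAR and -0.51 for FAS. Within lines, the effect of afatinib at 24 h minus that at 4 h was -1.11 for TNFRSF10A, -0.98 for FAS, -0.61 for TNFRSF21, -0.58 for FADD, 0.48 for TNFRSF1A and 1.33 for TNFSF10 in NCI-N87 cells, 0.53 for TNFRSF1A in MKN7 cells and 0.72 for CFLAR and 1.88 for TNFSF15 in MKN1 cells.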

How the results depend on the processing

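None of the 157 log2FC values of the 10 genes that passed the test turned its direction under any alternative run. Within lines, 80 of 80 stayed past the threshold with DESeq2 and with the replicate block, 79 with at least 10 counts in every library, 73 with no filter, 67 with scaling by library size, 60 with only the compared groups, and 50, 62 and 56 without replicate 1, 2 and 3. TNFSF15 was not tested in Hs746T cells and between lines at 10 counts in every library. Scaling by library size moved the median log2FC of all genes by over 0.1 in 6 of 20 MKN1, 3 of 12 MKN7, 4 of 12 NCI-N87 and 0 of 20 Hs746T contrasts (between -0.20 and 0.31), and 1 of 40 untreated levels moved by more than its SD.

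The counts of genes that passed moved by over 1.5 times as follows, and the cause was not tested. All shares of all genes given beside counts come from the fits without the block. No such share was computed with the block. With the replicate block, the afatinib effect at 24 h between MKN1 and Hs746T went from 2 to 5 genes and between MKN7 and Hs746T from 3 to 5, the EGF effect from 4 to 9 and the cetuximab effect from 0 to 3. Within lines the block gave 1 gene in place of 0 (Hs746T afatinib 24 h, and Tra + Afa 24 h) and 4 in place of 0 (4 h), 6 in place of 3 (MKN1 cetuximab 24 h), 4 in place of 1 (4 h), 8 in place of 5 (MKN1 EGF + Cet against untreated, 24 h), 4 in place of 2 (4 h), 3 in place of 1 (against EGF, 24 h) and 2 in place of 0 (4 h). For 24 h against 4 h in untreated cells it gave 3 in place of 1 (Hs746T), 4 in place of 1 (MKN7) and 1 in place of 0 (NCI-N87). In MKN1 cells at 24 h the block added calls and lost none. Blocked values there were TNFRSF10B -0.14 (adjusted p = 0.0109) and CFLAR 0.23 (0.00278) for afatinib, TNFRSF21 0.32 (4.96e-06) and CASP8 0.14 (0.0129) for EGF, CFLAR 0.18 (0.0212), TNFRSF10A -0.32 (0.0064) and TNFRSF10B -0.13 (0.0225) for cetuximab, CFLAR 0.19 (0.0128), TNFRSF10B 0.18 (0.00191) and TNFRSF21 0.24 (0.000418) for EGF + Cet, TNFRSF10A -0.28 (0.0365) and TNFRSF10B -0.14 (0.042) for EGF + Cet against EGF, and CASP8 0.17 (0.0049) over time. Among the comparisons reported, it changed no other count by over 1.5 times.

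DESeq2 gave 3 in place of 1 (MKN1 cetuximab 4 h) and 1 in place of 0 (EGF + Cet against EGF, 4 h). At least 10 counts in every library gave 1 in place of 2 (afatinib effect, MKN1 against Hs746T) and 2 in place of 1 (MKN1 cetuximab 4 h). Scaling by library size gave 3 in place of 5 (MKN1 afatinib 4 h), 0 in place of 1 (cetuximab 4 h) and 1 in place of 2 (EGF + Cet 4 h). With no filter, Hs746T 24 h against 4 h gave 0 in place of 1. Only the compared groups gave 0 in place of 1 there and in MKN7, 3 in place of 5 (MKN1 EGF + Cet 24 h), 0 in place of 2 (4 h), 1 in place of 5 (MKN1 afatinib 4 h; regulated 0 in place of 1) and 0 in place of 1 (cetuximab 4 h).

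Leaving out 1 replicate gave 0 to 2 genes for the afatinib effect of MKN1 against Hs746T, 3 to 4 for MKN7 against NCI-N87, 1 to 2 for the EGF effect and 0 to 2 for the cetuximab effect. It gave 0 to 2 for Hs746T and 0 to 3 for MKN7 over time, 5 to 7 for MKN1 over time, 2 to 5 for MKN1 afatinib at 24 h and 0 to 4 at 4 h (regulated 0), 0 to 3 for cetuximab at 4 h, 3 to 4 for EGF at 4 h (regulated 0 to 1) and regulated 1 to 2 at 24 h. EGF + Cet gave 1 to 5 against untreated at 24 h (regulated 1 to 2), 0 to 2 at 4 h and 0 to 1 against EGF at 24 h. MKN7 and NCI-N87 afatinib at 4 h gave 3 to 5 and 4 to 5. The low levels of TNFSF10 in MKN7 and TNFSF15 in Hs746T and MKN1 cells limit the precision there.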
